A study of Saccharomyces cerevisiae with 2 samples.

Results

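The 50 genes described here encode sequence-specific transcription factors of budding yeast (Saccharomyces cerevisiae), and were followed on 2 tiling arrays that compare nucleosomal with genomic DNA. They were taken from the array's own annotation by name: probes inside each gene and probes annotated upstream of it, alone or between it and a divergent neighbour. They hold 481 of the 39164 nuclear probes upstream of or inside genes, and are 50 of 5474 genes with such probes. A single group was measured, replicates 1 and 2 of nucleosomal DNA (chromatin digested with micrococcal nuclease, which cuts the linkers between nucleosomes; Cy5) against genomic DNA (sonicated chromatin; Cy3), from cells arrested with the mating pheromone alpha factor. Strain, mating type and genotype are not given in the labels, and nothing there says that the replicates were separate cultures, so limma p-values measure the spread between these arrays only, which may be technical.

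A nucleosome wraps DNA around histones and limits the access of factors to their sites. Yeast promoters are known for a stretch poor in nucleosomes before the gene start, where such factors bind. General regulatory factors such as Abf1, Reb1 and Rap1 are known for keeping these stretches open, while stress and nutrient factors act on smaller sets of genes. The values below concern the DNA of the genes that encode these factors, not their binding sites elsewhere and not their expression, which was not measured.

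Values are log2 ratios of Cy5 over Cy3 processed intensity centred on the median of each array. Values over 0 stand for a Cy5 share above that of the median probe. Upstream probes mostly had high ratios, and so did mitochondrial DNA, which carries no histones: its 222 kept probes had a median 4.51 above the nuclear one. Both go against what is known of nucleosomes if the channels are read as labelled. The sign is therefore given as measured and not as occupancy. With the channels exchanged, every value would change sign and the calls above and below 0 would trade places.

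Both arrays had close to the same values (SD of the difference over all kept probes 0.065, with 41454 kept). Of the 481 probes of the listed genes, 478 were kept. For the upstream means of single genes the largest difference between the arrays was 0.096, and for coding means 0.061, and differences between genes larger than these exceed the spread between the arrays. The number of arrays limits the precision. Both arrays share a slide and a dye orientation, so neither a slide nor a dye effect can be told apart from the values.

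Upstream of most of the transcription factor genes the ratio was high. Of 48 genes with a probe within 500 bp of the start, 38 passed the limma test above 0 (Benjamini-Hochberg adjusted p under 0.05 over all genes), 7 passed below 0 and 3 did not pass. Over all 5002 genes tested 73.5% were called above 0 and 23.1% below, so the count above 0, which is 79.2% of the 48 genes, lay near the background. The median of the listed genes was 1.49 (1.498 on replicate 1 and 1.492 on replicate 2), beside 0.88 for all genes. A further 76 transcription factor genes, among them SWI4, STE12 and GAL4, had a median of 0.82, with 55 of 74 above 0 and 18 below, and their median lay near that of all genes.

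Inside the genes the ratio lay near or below 0. Coding means of 30 of the 50 genes passed below 0, 12 above, and 8 did not pass, where 55.6% of all genes were called below and 38.3% above. The median was -0.11 for the listed genes and -0.082 for all genes. Upstream exceeded coding in 40 of 48 genes and was lower in 8 (limma on the difference within each gene), beside 74.8% and 21.2% of all genes. The median difference was 1.67 for the listed genes and 0.96 for all genes. This contrast lies within a gene and an array and does not depend on centring.

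**Figure D1:**
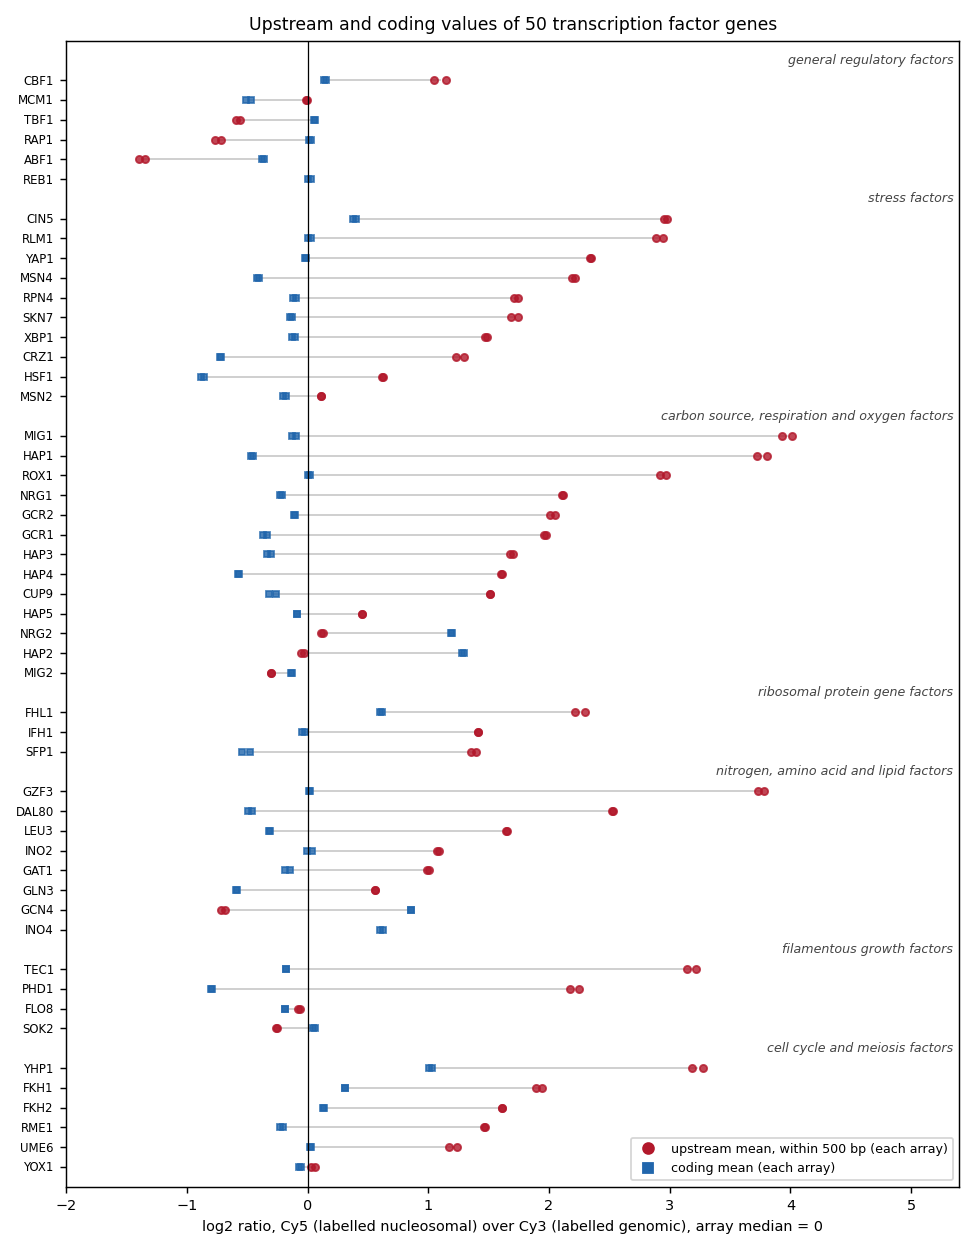
Upstream mean within 500 bp (circles) and coding mean (squares) of each of the 50 genes on both arrays, grouped by role; the x axis is the log2 ratio of Cy5 over Cy3 with the array median at 0. Stress factors all lie right of 0 upstream, from 0.11 to 2.97, while 3 of the 5 measured general regulatory factors were called below it. Of all genes 73.5% were called above 0 and 23.1% below.

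The general regulatory factors, with 5 genes measured, held 3 of the 7 genes called below 0 upstream, where 23.1% of all genes were. ABF1, whose product binds promoters and replication origins, had the lowest upstream value of all 48 genes, -1.35 on replicate 1 and -1.40 on replicate 2 (mean -1.37 ± 0.038, SD, n = 2 arrays; limma, adjusted p = 6.04e-07). Only 1.22% of all genes lay lower. Its region is shared with the divergent gene RAD27, and its probes stood at -0.92 (137 bp from the start), -1.82 (443 bp) and 2.39 (678 bp), so the low stretch lay next to ABF1 and a high probe beyond it. RAP1, whose product binds ribosomal protein promoters, silencers and telomeres, stood at -0.77 and -0.72 on its only upstream probe. TBF1, which acts at small nucleolar RNA promoters and near telomeres, stood at -0.56 and -0.60.

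MCM1, a regulator of cell type and cell cycle genes, stood at -0.014 and -0.010 and did not pass (limma, adjusted p = 0.546), and 1 of its 2 probes was saturated in Cy5 on both arrays. Farther upstream the MCM1 probes were high, at 2.92 (523 bp) and 3.80 (765 bp). CBF1, which binds centromeres and promoters of methionine genes, was the highest of the group with 1.14 and 1.05 (mean 1.10 ± 0.068, SD, n = 2 arrays). REB1, whose product binds many promoters and the ribosomal DNA, had no upstream probe and a coding mean of 0.018 (limma, adjusted p = 0.183). In all, 3 of 5 measured members were called below 0 and 1 above, beside 23.1% and 73.5% of all genes. After normexp background correction ABF1 stood at -0.43 (adjusted p = 0.0496 with limma) with its upstream minus coding difference turned to 0.047, RAP1 no longer passed at -0.42 (limma, adjusted p = 0.0534), and TBF1 stood at -1.07. With every upstream probe ABF1 stood at -0.12.

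All 10 stress factor genes were above 0 upstream, where 73.5% of all genes were, with a median of 1.72. The count rests on the window and the background correction, since SKN7 (-1.06) and RPN4 (-0.29) were called below 0 within 250 bp and HSF1 no longer passed after normexp (0.42; limma, adjusted p = 0.0583). CIN5, a bZIP factor of salt tolerance, was the highest with 2.98 and 2.96 (mean 2.97 ± 0.018, SD, n = 2 arrays; adjusted p = 1.28e-07). MSN2, a zinc finger activator of the general stress response, was the lowest with 0.11 on both arrays (adjusted p = 0.00288), a call that ended without centring (-0.015) and after normexp (0.22), and loess turned it to -0.13. RLM1, the MADS-box factor of cell wall stress, had 3 high upstream probes of 2.44, 3.39 and 2.61. YAP1, the bZIP factor of oxidative stress, stood at 2.34 on 2 probes, of which the higher was saturated in Cy5, and at 1.14 without it. With every upstream probe CIN5 stood at 0.79.

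SKN7 (oxidative and osmotic stress), RPN4 (proteasome genes), XBP1 (a stress-induced repressor) and CRZ1 (calcium signalling) had means of 1.71, 1.72, 1.48 and 1.26. In each of them the probe next to the start was the lowest of those within 500 bp: -1.06 for SKN7, -0.29 for RPN4, 0.32 for XBP1 and 0.25 for CRZ1. HSF1, the heat shock factor, stood at 0.61 and 0.62 upstream and had the lowest coding mean of the 50 genes, -0.88 on replicate 1 and -0.86 on replicate 2. Of its 9 coding probes 8 were below 0. Without saturated probes CRZ1 upstream was 0.25 and HSF1 1.12.

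Among genes of carbon source, respiration and oxygen factors 11 of 13 were above 0 upstream and 1 below, beside 73.5% and 23.1% of all genes. These counts also rest on the window and the background correction. Within 250 bp CUP9 was called below 0 (-1.22). After normexp HAP5 no longer passed (0.43; limma, adjusted p = 0.0583) and NRG2 turned to -0.32. MIG1, the glucose repressor, had the highest upstream value of the list, 4.01 and 3.93 (mean 3.97 ± 0.059, SD, n = 2 arrays), above 99.3% of all genes. HAP1, the heme-responsive activator, followed with 3.80 and 3.73. In both, 1 probe lies within 500 bp, and with every upstream probe MIG1 stood at 0.25 and HAP1 at 1.34. The HAP1 probe was dim in Cy3, with 101 and 116, and the HAP1 difference of 4.23 was 2.76 after normexp. ROX1, the repressor of hypoxic genes, had 2.97 and 2.92. MIG2, a relative of MIG1, was the lowest of the group with -0.31 on both arrays, on the single probe kept within 500 bp. Its probe nearer the start was too dim in Cy3 and was left out. With that probe the MIG2 mean was 0.54, with every upstream probe 1.03, and after loess 0.20, so its direction is not settled.

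The 4 genes of the CCAAT-binding complex, which drives respiratory genes, had unlike upstream values. HAP3 stood at 1.67 and 1.70 upstream and HAP4, the activating subunit, at 1.60 and 1.61. HAP5 stood at 0.45 on both arrays, and its difference of 0.54 turned to -0.19 without saturated probes. HAP2 did not pass, with -0.058 and -0.034 (limma, adjusted p = 0.068), and had the highest coding mean of the 50 genes, 1.30 and 1.28, with probes of 1.51, 1.62 and 0.73. In HAP2 the order of the regions was thus turned, with upstream minus coding at -1.33 ± 0.031 (SD, n = 2 arrays). HAP4 was low next to the start, with 0.14 at 134 bp, which is also its upstream value with a window of 250 bp. Its difference was 2.18, and 0.72 with that window. Far out HAP4 was high, with 4.19 at 955 bp and 1.78 at 1716 bp, in a region shared with KTI12.

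GCR1 and GCR2, activators of glycolytic genes, stood at 1.96 and 2.03 upstream, and with every upstream probe at 0.26 and 1.01. Of NRG1 and NRG2, zinc finger repressors of glucose-repressed genes, NRG1 stood at 2.10 and 2.12, and NRG2 at 0.11 and 0.12. NRG2 also had a high coding mean, 1.19 and 1.20, and a lower upstream than coding value (difference -1.08 ± 0.0040, SD, n = 2 arrays). Only 1 NRG2 probe lies within 500 bp, and the next ones out stood at 3.63 (539 bp), 1.76, 1.74 and 1.34, so that with every upstream probe NRG2 was 1.72 and its difference 0.53. Its call above 0 ended without centring (-0.011) and after normexp (-0.32). CUP9, a repressor of peptide transport, stood at 1.51 on both arrays as a mean of 3 very unlike probes, -1.22 (116 bp), 1.57 (293 bp) and 4.19 (460 bp).

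The 3 factors of ribosomal protein genes were all above 0 upstream, where 73.5% of all genes were. FHL1, the forkhead protein bound at these genes, had 2.21 and 2.301 (mean 2.26 ± 0.064, SD, n = 2 arrays), IFH1, its coactivator, 1.41 on both, and SFP1, the nutrient-dependent activator, 1.39 and 1.35. In FHL1 and IFH1 the mean hides a step between neighbouring probes. FHL1 stood at -0.095 at 104 bp and 4.61 at 293 bp, the highest probe within 500 bp of any of the 50 genes. That probe was dim in Cy3, with 84 and 78, where the listed genes had upstream medians of 631 and 602. After normexp the FHL1 upstream mean was 1.41. IFH1 stood at -1.03 at 80 bp and 3.85 at 330 bp. With a window of 250 bp, which leaves only the probe next to the start, FHL1 turned to -0.095 and IFH1 to -1.03. FHL1 was also high inside, with a coding mean of 0.61 and 8 of 11 coding probes above 0.

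Among nitrogen, amino acid and lipid factors 6 of 7 were above 0 upstream, beside 73.5% of all genes, and 1 of the 6, GLN3, no longer passed after normexp (0.14; limma, adjusted p = 0.372). GZF3 and DAL80, GATA-type repressors of nitrogen genes, were the highest, with 3.78 and 3.73 for GZF3 and 2.53 and 2.52 for DAL80, each on 1 probe. LEU3 (leucine synthesis) stood at 1.65, INO2 (phospholipid synthesis) at 1.08, and the GATA-type activators GAT1 and GLN3 at 0.998 and 0.55. INO4, the partner of INO2, had no upstream probe, and both of its coding probes were above 0 (0.16 and 1.07).

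GCN4, the activator of amino acid synthesis genes, was the exception and carries the strongest turn of the list. Its upstream mean was -0.72 on replicate 1 and -0.69 on replicate 2, its coding mean 0.86 on both, and the difference -1.56 ± 0.024 (SD, n = 2 arrays; limma, adjusted p = 6.70e-08), the lowest of the 48 genes. The GCN4 transcript is known for a long leader with short upstream reading frames that control its translation. Its 6 upstream probes, all in the region shared with YEL007W, stood at -1.12 at 125 bp, -0.28 at 479 bp, 3.95 at 723 bp, 0.90 at 1122 bp, 4.29 at 1429 bp and 3.92 at 1603 bp. Both values below 0 lay in the 500 bp next to the gene. With every upstream probe GCN4 turned to 1.94 upstream and 1.09 for the difference, and after normexp the upstream value no longer passed (-0.37, limma, adjusted p = 0.0730).

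Of the 4 filamentous growth factor genes 2 were called above 0 upstream and 2 below, beside 73.5% and 23.1% of all genes. TEC1, which acts with Ste12 on filamentation genes, had 3.22 and 3.15 upstream (1.53 with every upstream probe), and PHD1 had 2.17 and 2.25 with a coding mean of -0.80, among the lowest 3.44% of genes. SOK2, the paralog of PHD1, stood at -0.26 on both arrays and FLO8, an activator of flocculin genes, at -0.063 and -0.080. SOK2 had a probe of -1.74 at 512 bp, just outside the window, and then 2.31, 2.95, 1.54 and 0.87 from 764 to 1891 bp. SOK2 turned to 0.95 with every upstream probe and to 1.21 after normexp, so its direction is not settled. Nor is that of FLO8, which stood at 0.041 after loess and 0.043 with every upstream probe, did not pass after normexp (-0.40; limma, adjusted p = 0.0682), and stood at -0.69 within 250 bp.

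Of the 6 cell cycle and meiosis factors 5 were called above 0 upstream, beside 73.5% of all genes. YHP1, a homeobox repressor, had 3.27 and 3.18 upstream and also a high coding mean of 1.03 and 1.01, with all 3 kept coding probes above 0. YOX1, its paralog, did not pass at 0.057 and 0.025 (limma, adjusted p = 0.102), as the mean of a high probe next to the start (0.998 at 114 bp) and a low one (-0.92 at 482 bp). The forkhead genes FKH1 and FKH2, whose products act at G2/M promoters, stood at 1.92 and 1.61, RME1, the repressor of meiosis, at 1.47 and UME6, the regulator of early meiotic genes, at 1.20. UME6 was lower farther out, with 2.73 at 175 bp, -0.32 at 366 bp and -1.32 at 696 bp.

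Paralogs are set side by side by their means within 500 bp. MIG1 and MIG2 had upstream means of 3.97 and -0.31, YHP1 and YOX1 3.23 and 0.041, PHD1 and SOK2 2.21 and -0.26, MSN4 and MSN2 2.20 and 0.11, NRG1 and NRG2 2.11 and 0.12. GZF3 and DAL80 had 3.76 and 2.53, and FKH1 and FKH2 1.92 and 1.61. Each of these pairs differed by more than the largest difference between the arrays. These are descriptions of single regions, most with 1 or 2 probes within 500 bp (18 and 28 of the 48 genes), and the pairs were not tested. With every upstream probe the order of 2 pairs turned, with MIG1 at 0.25 and MIG2 at 1.03, and NRG1 at 0.88 and NRG2 at 1.72.

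The upstream regions of the listed genes were long. They held a median of 3 upstream probes, beside 2 for all genes, and the farthest probe lay 747 bp from the start (median), beside 376 bp for all genes and 543 bp for the other transcription factor genes. Of the 48 genes 43.8% had 4 or more upstream probes, beside 18.9% of all genes and 28.4% of the other transcription factor genes. A divergent neighbour shared the region in 58.3% of the listed genes and 52.3% of all genes. In such shared regions, the farthest probes lie next to the neighbour's start. The upstream length of the list was not tested against other genes.

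Over all distances 167 upstream probes were kept. Of these 120 passed the limma test above 0 and 39 below, which is 71.9% and 23.4%, beside 65.7% and 30.4% of all nuclear upstream probes. Inside the genes 108 of 311 probes passed above and 184 below, 34.7% and 59.2%, beside 40.4% and 52.9% of all coding probes. The highest upstream probe of all lay far out, at 4.78, 1208 bp before MSN4. MSN4 has the divergent neighbour YKL063C, and its farthest upstream probe lay at 1377 bp. Of 40 genes with at least 2 upstream probes, 15 had their highest probe beyond 500 bp. This was not counted over all genes, whose upstream regions are shorter, so no comparison is drawn. Of the same 40 genes 23 (57.5%) held both a probe called above and one called below 0. So did 57.7% of all genes with at least 2 upstream probes.

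**Figure D2:**
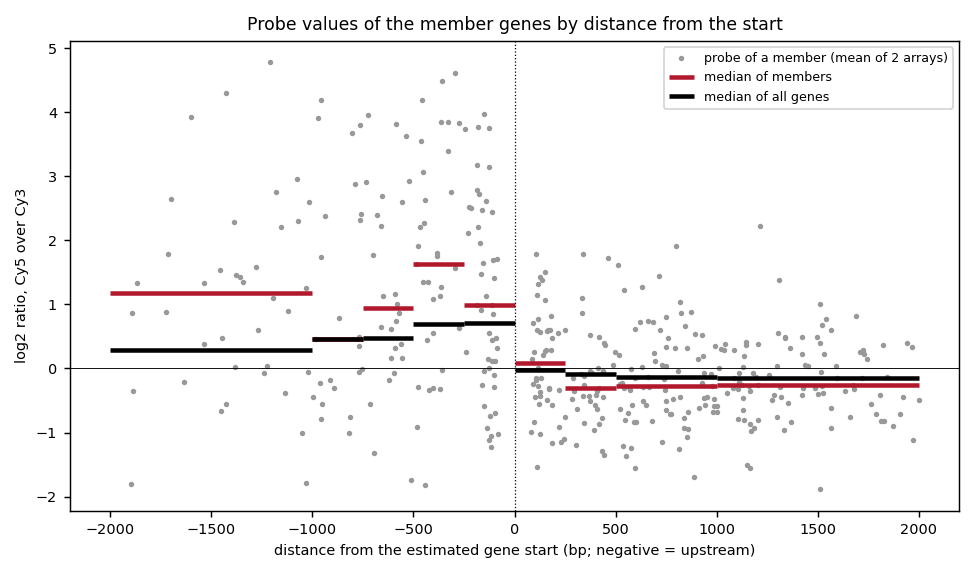
Every kept probe of the listed genes within 2000 bp (grey points, mean of 2 arrays) by distance from the estimated gene start, with medians of the listed genes (red bars) and of all genes (black bars); the y axis is the log2 ratio of Cy5 over Cy3. The red bar lies highest at 250 to 500 bp upstream (1.63) and drops to 0.083 just inside the gene.

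By distance, the listed genes had a median of 0.99 within 250 bp of the start (47 probes), 1.63 from 250 to 500 bp (33 probes), 0.94 from 500 to 750 bp and 0.46 from 750 to 1000 bp. All genes had 0.71, 0.70, 0.48 and 0.47 in the same ranges. Beyond 1000 bp the listed genes had 1.18, from 38 probes of only 15 genes, beside 0.29 for all genes. The other transcription factor genes had 0.77, 0.55, 1.37 and 1.11 in the ranges up to 1000 bp. Beyond it they had 1.10 (35 probes of 17 genes), so high values far upstream were not particular to the listed genes. Inside, the first 250 bp had a median of 0.083 and the next 250 bp -0.31, beside -0.031 and -0.085 for all genes. Starts were placed midway between the flanking probes, so distances are estimates and single nucleosomes are not resolved.

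Within single genes the value next to the start could be far above or far below the rest of the upstream region. Of 39 genes with probes on both sides of 250 bp, 16 had a higher value near the start and 21 a lower one (limma on the difference, adjusted p under 0.05), beside 44.3% and 51.8% of all genes, so these shares lay near the background. The median of the listed genes was -0.50, that of the other transcription factor genes -0.68 and that of all genes -0.19. Near values exceeded far ones most in MIG1 (4.01 and 3.93 near, against -0.37 and -0.36 far), UME6 (difference 3.55) and CIN5 (3.44). They lay lowest in FHL1 (-0.13 and -0.063 near, against 4.55 and 4.66 far), GCN4 (difference -3.68) and SKN7 (-3.38). All 5 measured cell cycle and meiosis genes were higher near the start, and all 3 ribosomal protein factor genes were lower. After normexp 11 of the 37 called differences no longer passed, among them FKH1, FKH2, YHP1 and SFP1, so neither group count held. YHP1 also turned to -1.23 without saturated probes and did not pass after loess (0.044).

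**Figure D3:**
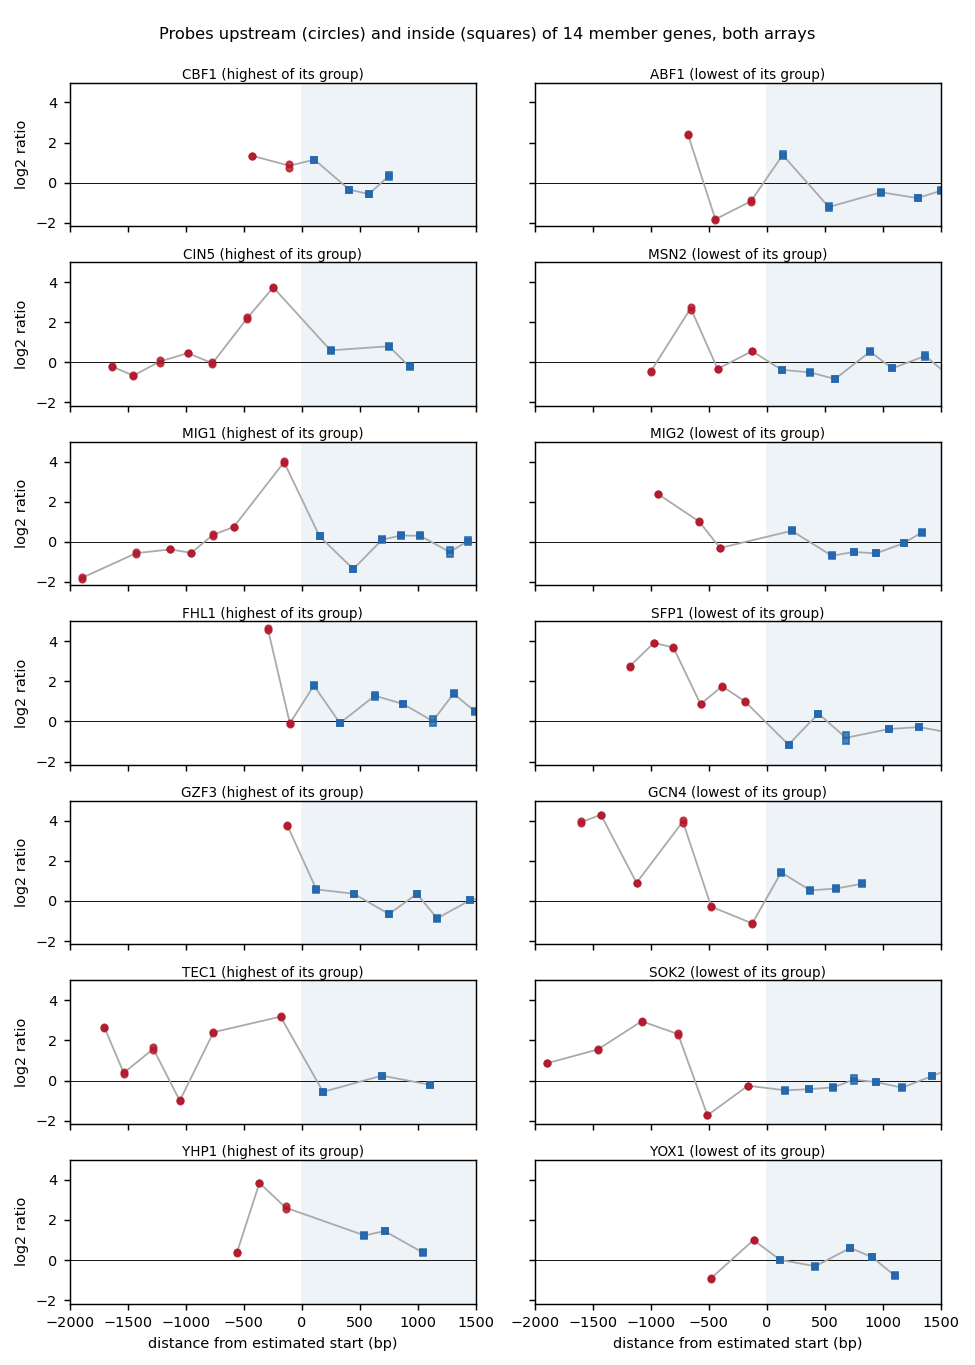
Probes of the 14 genes with the highest (left) and lowest (right) upstream mean in each role group, by distance from the estimated start (shaded side: inside the gene), with both arrays plotted; the y axis is the log2 ratio of Cy5 over Cy3. The genes on the right mostly have their high probes farther out, such as GCN4 with 3.95 at 723 bp and SFP1 with 3.91 at 972 bp. They were chosen by a low mean within 500 bp, so this partly follows from the choice.

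Coding regions were themselves uneven. Probes of both calls were found inside 37 of the 50 genes, and 6 genes had every coding probe called below 0 and 5 every one called above. These counts were not made over all genes, so they mark no trait of the list. Of all coding probes 40.4% were called above 0 and 52.9% below. The highest coding probe was in ROX1, at 2.21 and 2.23, the last probe inside the gene (chromosome 16, 680750 to 680809 in the array's coordinates, of a build that the labels and headers leave unnamed). The lowest was the last probe of SKN7, at -1.86 and -1.91 (chromosome 8, 514105 to 514164). SKN7 thus ran from 1.31 and 1.72 over its first coding probes to -1.88 at the end. HAP1, which has the most coding probes of the list, 18, had 14 below 0 and 4 above, from -1.35 to 1.43. After HSF1, PHD1 and CRZ1 had the lowest coding means, -0.80 and -0.72.

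The difference between upstream and coding regions lay mainly in the Cy3 channel, which held the genomic DNA per the labels. Upstream of the listed genes the median processed intensity in Cy5 was 1574 on replicate 1 and 1571 on replicate 2, and in Cy3 it was 631 and 602. Inside them the Cy5 medians were 1497 and 1527 and the Cy3 medians 1717 and 1735. Per gene, upstream minus coding had a median of 0.039 in log2 Cy5 and -1.76 in log2 Cy3, and Cy3 was lower upstream in 42 of 48 genes (87.5%), beside 77.8% of all genes. All genes had medians of 0.0042 in Cy5 and -1.04 in Cy3. A probe's brightness also depends on its own sequence, so these intensities are given beside the ratios, and their part in them was not tested.

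Single genes departed from this in both channels. Upstream of MIG1, Cy5 was 2467 and 2427 and Cy3 167 and 174, and inside MIG1 Cy5 was 1439 and 1522 and Cy3 1718 and 1781 (geometric means). In ABF1 and RAP1 the low upstream ratio went with a low Cy5 signal, 1.32 and 1.22 log2 units under that of the coding region (differences -1.32 and -1.22), while Cy3 differed by -0.32 and -0.46. In NRG2, HAP2, TBF1 and GCN4, whose upstream ratio was under that of the coding region, Cy3 was higher upstream, by 2.03, 1.35, 1.48 and 0.89. Cy5 differed by 0.95, 0.017, 0.84 and -0.67 in the same genes, so GCN4 was lower in Cy5 as well. In SOK2 both channels were dim upstream, with 241 and 233 in Cy5 and 314 and 305 in Cy3.

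**Figure D4:**
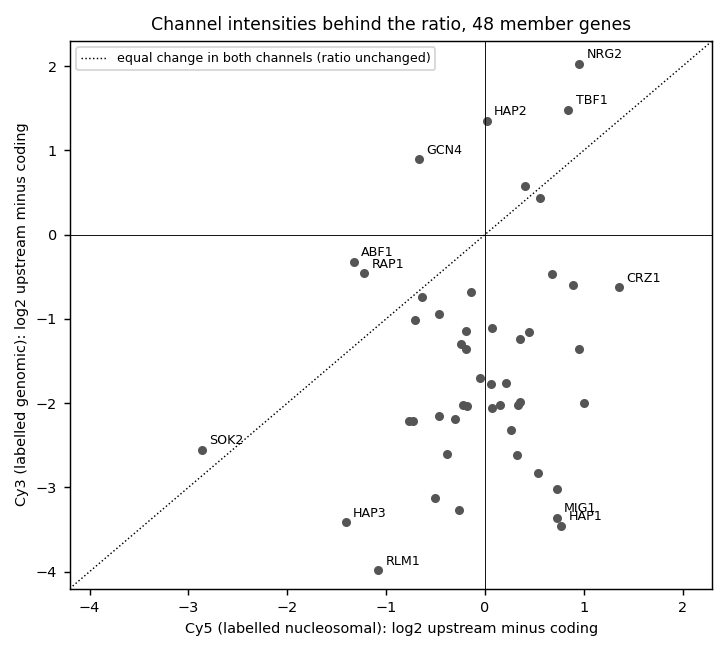
Upstream minus coding difference of log2 processed intensity for 48 genes, in Cy5 (x axis) and Cy3 (y axis), as means of 2 arrays; points on the dotted line have the same ratio in both regions, and points under it a higher ratio upstream. Most points spread along the y axis below 0, while ABF1, RAP1 and SOK2 lie to the left of and above the line.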

How the data were processed

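Both Agilent arrays carried the nucleosomal sample in the Cy5 channel and the genomic sample in the Cy3 channel, per the labels. The deposited scanner files hold intensity per spot, which Agilent Feature Extraction 9.1.3.1 background-subtracted, detrended and scaled with 1 factor per dye, per the file headers. A deposited table of log2 ratios equals log2 of processed Cy5 over Cy3 without centring and served as an alternative.

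The medians of the log2 ratios before centring were -0.13 on both arrays. Probes with a non-uniform spot (174) or with Cy3 not well above background (147) were left out. Saturated spots stayed (4.38% and 4.59% of probes in Cy5). Genes and sides were taken from the array's annotation and the strand in systematic names (5454 of 5474 names matched a table of assembly R64). Means per gene were tested against 0 with limma 3.58.1 in R 4.3.3 over all genes. The test was checked on simulated data in which most values were truly 0. Most genes here were called, so that check gives no error rate for these data. Python 3.11.15 with pandas 2.3.3, matplotlib 3.10.9 and numpy 2.4.6 made tables and figures.

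The genes, role groups and list of other transcription factors were chosen with earlier results of these data known. A rule chose genes to name at length: the highest and lowest upstream mean of each role group, the 3 highest and lowest coding means and differences, and the most extreme probes. The remaining genes are given by value. For some of them, such as IFH1, UME6, RLM1, YAP1 and HAP4, probe values are printed as well. The rule did not choose these, nor the extremes of near minus far. Alternatives were normexp (offset 50), loess, no centring, no filter, no saturated probes, no shared probes, the deposited table, windows of 250 bp or the whole upstream region, and each array alone.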

Additional observations from a re-analysis of the deposited data

How the results depend on the processing

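No comparison between groups was possible because there is 1 group. With 1 array the medians over genes ranged from 1.492 to 1.498 upstream, from -0.12 to -0.10 inside, from 1.65 to 1.70 for the difference and from -0.53 to -0.39 for near minus far. Upstream, coding, difference and near minus far medians were 1.33, -0.26, 1.41 and -0.20 after normexp, and 1.18, -0.093, 1.47 and -0.39 after loess. Without centring the first pair was 1.37 and -0.24. Without saturated probes the upstream, difference and near minus far medians were 1.47, 1.62 and -0.32, and with no filter the last was -0.32. The window of 250 bp gave 0.99 upstream and 1.08 for the difference, and all upstream probes gave 1.15 and 1.21. All genes had 0.71 and 0.81 with 250 bp, and 0.84 and 0.92 with all upstream probes. Leaving out shared probes left 24 genes (15 for near minus far), with an upstream median of 1.49. Upstream counts were then 17 above and 4 below, beside 74.0% and 22.7% of all genes. Difference counts were 19 and 5, beside 75.0% and 21.0%, and near minus far counts 5 and 8, beside 43.9% and 51.5%. Upstream counts below 0 were 3 after normexp (6.25%), 11 with 250 bp (23.4%) and 3 with all probes (6.25%). Of all genes 12.9%, 29.2% and 19.7% were below 0 in these settings. Difference counts below 0 were 4 (8.33%), 13 (27.7%) and 3 (6.25%), beside 12.1%, 27.1% and 18.8% of all genes. The cause of these changes was not tested. Among the 26 values chosen by the naming rule, those that turned sign under an alternative were upstream, unless a difference is stated, FHL1 (-0.095 with 250 bp), GCN4 (1.94 upstream and 1.09 for the difference with all probes), NRG2 (difference 0.53 with all probes), MIG2 (0.20 loess, 0.54 no filter, 1.03 all probes), MSN2 (-0.13 loess, -0.015 uncentred), SOK2 (1.21 normexp, 0.95 all probes) and YOX1 (-0.14 loess, -0.087 uncentred). YOX1 passed at 0.998 with 250 bp, and GCN4 (-0.37) and MSN2 (0.22) upstream no longer passed after normexp. Other listed genes turned too: SKN7 (-1.06), RPN4 (-0.29), CUP9 (-1.22) and IFH1 (-1.03) upstream with 250 bp, the ABF1 difference (0.047 normexp, 0.25 all probes), and, without saturated probes, the HAP5 difference (-0.19) and YHP1 near minus far (-1.23). These are examples and not every turn. The deposited table changed none of the 26 named values' calls. Dim Cy3 limits the highest ratios, and saturated Cy5 makes ratios there lower bounds.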
